A study of Mus musculus with 18 samples.

Results

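The Wnt genes examined here encode secreted Wnt ligands, the frizzled receptors with the coreceptors Lrp5 and Lrp6, the R-spondins that strengthen the signal, the secreted antagonists, and 2 genes that respond to the pathway, Axin2 and Lef1. They were chosen by gene symbol, with a rule that used no values, though earlier results of these data were known. The rule took every ligand, frizzled, R-spondin, Dkk and Sfrp gene with a probe set of its own. It also took Frzb, Wif1, Lrp5, Lrp6, Axin2 and Lef1. This gave 45 of the 14807 genes measured, 19 of them ligands, 11 receptors or coreceptors, 4 R-spondins, 9 antagonists and 2 targets. Each was read by 1 probe set. Dkk1 was left out because its probe set names several genes. Fzd9 is absent too, as no probe set open to the rule names it alone.

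The embryos carried a knockout of Insm1, a zinc finger transcription factor of newly born neurons and endocrine cells, and the study sought genes under its control. Dorsal telencephalon, the tissue that becomes the neocortex and hippocampus, was taken at E13.5, in days of embryonic development, from 4 homozygous knockout, 6 heterozygous and 8 wildtype mouse embryos. Each embryo gave 1 array, read as log2 signals, a scale on which each unit is a doubling. The allele, the strain, the litters and the controls' breeding were not described, and no label limits the knockout to a cell type.

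Wnt proteins bind a frizzled together with Lrp5 or Lrp6 and stabilise beta-catenin, which enters the nucleus and acts with Lef1 or its relatives. R-spondins keep frizzleds on the cell surface, while Sfrp proteins, Frzb and Wif1 bind Wnts, and Dkk proteins block the coreceptors or modulate them. In the embryonic forebrain the cortical hem, a strip at the medial edge of the dorsal telencephalon, is a known source of several Wnts and R-spondins, and Wnt signalling promotes the growth of the hippocampal primordium next to it.

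The targeted gene followed the labels. Insm1 had log2 signals of 3.61, 3.54, 3.23 and 2.87 in the homozygous embryos, 4.02 to 5.17 (median 4.89) in the heterozygous and 4.84 to 5.77 (median 5.35) in the wildtype embryos. The homozygous and wildtype values did not overlap, with a log2 difference of -2.03 (SE 0.20, limma adjusted p = 3.8e-05; exact permutation test, two-sided, p = 0.00404, the smallest that 4 against 8 embryos allow). The 75th percentile of the arrays lay at 4.67 to 4.75 in homozygous, 4.50 to 4.78 in heterozygous and 4.67 to 4.87 in wildtype embryos. Homozygous replicate 2 and heterozygous replicate 6 stood apart, with mean levels of 10 hypoxia response genes of 5.10 and 5.15, against 3.36 to 3.74 in wildtype embryos. The male marker Eif2s3y was high in some embryos and low in others of each genotype, in unequal shares. In replicate order it was 0.32, 0.44, 0.49 and 5.12 in homozygous embryos. In heterozygous embryos it was 0.55, 0.60, 4.80, 4.75, 0.66 and 4.46. In wildtype embryos it was 4.88, 4.75, 0.27, 0.47, 4.97, 4.72, 4.70 and 0.39. The 12 cortical neuron markers measured averaged 6.79 to 6.88 in homozygous, 6.93 to 7.26 in heterozygous and 7.04 to 7.36 in wildtype embryos. In limma 0.504% of all probe sets were lower in homozygous than in wildtype embryos at an adjusted p under 0.05. So were 4 of the 12 markers (Ina, Elavl3, Map2 and Neurod1). Their part in the results below was not tested. In such pieces of tissue, fewer cells of a type and less RNA per cell cannot be told apart.

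Homozygous against wildtype embryos were compared to ask whether any of these genes changed with loss of Insm1. No Wnt ligand, receptor, R-spondin, antagonist or target passed the test. Of the 45 genes, 0 had an adjusted p under 0.05 in limma, where 0.564% of all 16661 probe sets did (94: 10 higher, 0.06%, and 84 lower, 0.504%). At an unadjusted p under 0.05 there were 5 of 45, or 11.1%, against 15.3% of all probe sets. The log2 differences ran from -0.25 to 0.17 with a median of -0.02, beside a median of -0.03 over all probe sets, and 22 were positive and 23 negative. For 44 of the 45 genes (97.8%) the 95% interval of the difference lay within 0.5 on the log2 scale either side of 0, that is within 1.41-fold. The same held for 88.7% of all probe sets. The exception was Rspo4, with an interval of -0.50 to 0.06. A p that misses the threshold does not show that the levels were equal. These intervals give the sizes of difference in signal that the embryos leave possible. Mean signals were under 1 for 11 of the 45 genes and from 1 to under 2 for 9. The array medians were 1.55 to 1.64. For such dim genes a narrow interval may hide a larger change in transcript number.

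**Figure D1:**
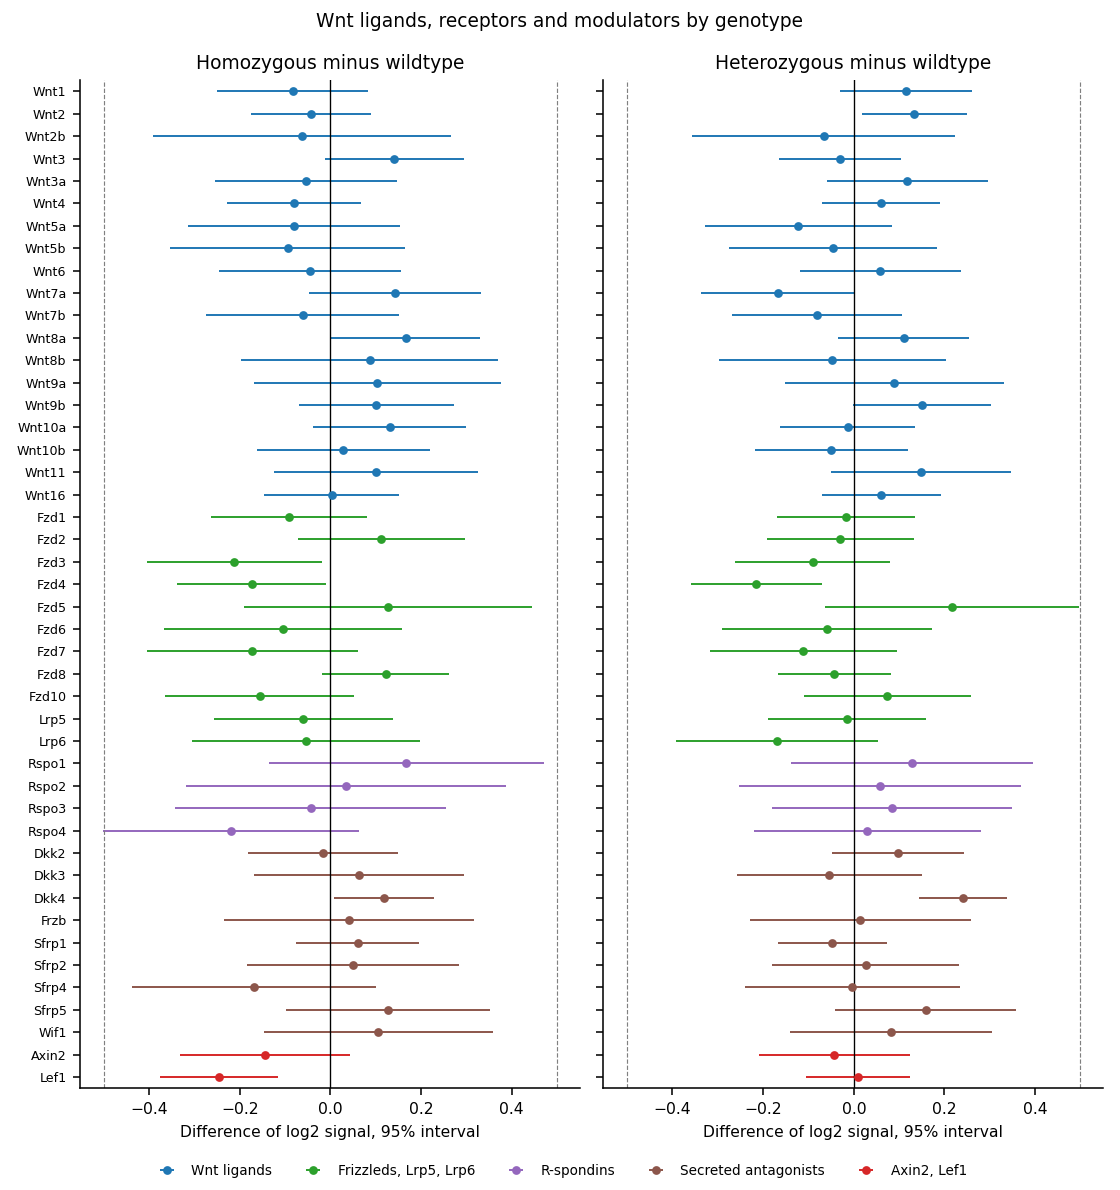
Differences of log2 signal for the 45 genes, homozygous minus wildtype on the left and heterozygous minus wildtype on the right, with 95% intervals from limma and colours by role; dashed lines stand at 0.5 on either side of 0. Rspo4 on the left is the one gene whose interval crosses a dashed line, and Lef1 has the lowest value on the left, at -0.25.

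Lef1, the transcription factor that carries the Wnt signal to its target genes and is itself raised by it, came nearest to the threshold. Its log2 signals were 5.41, 5.19, 5.18 and 5.34 in homozygous embryos, 5.38 to 5.69 (median 5.54) in heterozygous embryos and 5.45 to 5.65 (median 5.52) in wildtype embryos. All 4 homozygous embryos lay below all 8 wildtype embryos, and homozygous replicate 1 lay just above the lowest heterozygous one. The log2 difference was -0.25 (SE 0.06, 95% interval -0.38 to -0.11), 84.3% of the wildtype level, with an adjusted p of 0.0715 in limma. Without homozygous replicate 1 the difference was -0.29 with an adjusted p of 0.0312, and without heterozygous replicate 6, which enters through the shared spread, the adjusted p was 0.0396. Without homozygous replicate 2 it was 0.239, and without replicate 3 it was 0.246. Across the other settings tried the adjusted p ran from 0.0646 to 0.281 and the difference from -0.26 to -0.17.

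Axin2, which is induced by beta-catenin and helps to degrade it, is the usual readout of the pathway. It had 4.60, 4.46, 4.23 and 4.48 in homozygous embryos, 4.39 to 4.76 (median 4.54) in heterozygous embryos and 4.39 to 4.78 (median 4.58) in wildtype embryos. Its groups overlapped, and the difference between homozygous and wildtype embryos was -0.14 (SE 0.09, adjusted p = 0.481).

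The promoters of these 2 targets and that of Fzd7 are shown because TCF/LEF factors act through short sites in the DNA. RefSeq promoter windows (GRCm38.p6, 250 bases before to 50 after the start) were found for 29 of the 45 genes. They were searched on both strands for the TCF/LEF words CTTTGAA and CTTTGAT, and for the variants CTTTGTA and CTTTGTT. Such a word occurred in 3 of the 29, those of Fzd7, Wnt3 and Wnt11, which is 10.3%, and in 4575 of 27025 genes, or 16.9%. The windows of the Wnt genes had a median G and C content of 70.0%, against 52.7% for all genes, and these words are rich in A and T. The windows of Lef1 at chr3:131110047-131110346 and Axin2 at chr11:108920099-108920398 hold no such word. The Axin2 window lies downstream of the first base of the gene in the RefSeq table, chr11:108917828, and the bases around that position were not searched. Fzd7 at chr1:59481897-59482196 holds 1 word, in capitals, whose first letter lies at -130 from the start. It reads as CTTTGTT on the minus strand. All 3 windows are on the plus strand and run 5′ to 3′.
Lef1: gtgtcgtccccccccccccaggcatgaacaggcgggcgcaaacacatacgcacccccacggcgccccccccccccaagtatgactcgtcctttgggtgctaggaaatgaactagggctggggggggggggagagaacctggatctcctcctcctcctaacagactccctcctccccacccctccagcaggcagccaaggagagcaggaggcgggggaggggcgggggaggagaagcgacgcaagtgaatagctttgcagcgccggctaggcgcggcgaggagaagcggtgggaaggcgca
Axin2: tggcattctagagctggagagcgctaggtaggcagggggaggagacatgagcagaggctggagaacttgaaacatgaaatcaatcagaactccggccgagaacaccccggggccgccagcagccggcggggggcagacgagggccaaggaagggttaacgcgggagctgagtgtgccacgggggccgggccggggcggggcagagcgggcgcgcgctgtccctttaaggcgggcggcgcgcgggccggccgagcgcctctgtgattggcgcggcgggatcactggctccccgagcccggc
Fzd7: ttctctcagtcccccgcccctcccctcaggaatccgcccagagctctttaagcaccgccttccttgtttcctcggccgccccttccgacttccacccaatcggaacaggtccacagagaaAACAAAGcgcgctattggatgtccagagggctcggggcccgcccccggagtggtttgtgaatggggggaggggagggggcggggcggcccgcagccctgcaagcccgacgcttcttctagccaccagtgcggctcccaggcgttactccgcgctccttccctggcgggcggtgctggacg

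Among the receptors, 3 of 11 differences between homozygous and wildtype embryos were positive and 8 negative, with a median of -0.09. Fzd3, a frizzled needed for the growth of axon tracts in the forebrain, had 7.68, 7.49, 7.43 and 7.23 in homozygous, 7.38 to 7.77 (median 7.62) in heterozygous and 7.43 to 7.87 (median 7.66) in wildtype embryos. The groups overlapped, and the difference of -0.21 (SE 0.09, adjusted p = 0.277) did not pass.

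Fzd4, a frizzled best known in blood vessels, had 1.30, 1.29, 1.39 and 1.37 in homozygous embryos, 1.01 to 1.55 (median 1.35) in heterozygous embryos and 1.43 to 1.63 (median 1.48) in wildtype embryos. All 4 homozygous values were below all wildtype values, and the difference was -0.17 (SE 0.08, adjusted p = 0.300). The mean Fzd4 signal over all embryos was 1.40, below the array medians of 1.55 to 1.64. At such levels the arrays may show little of a change in transcript number. Lef1 and Fzd4 were the 2 genes of 45 (4.44%) whose homozygous and wildtype values did not overlap, against 2.48% of all probe sets, or 2.21% with the homozygous values lower as here. Of the 8 endothelial and pericyte markers 0 passed. In limma 2 of the 8 had an unadjusted p under 0.05, beside 15.3% of all probe sets. The mean levels of the 8 markers were 1.89 to 2.12 in homozygous, 1.98 to 2.14 in heterozygous and 1.89 to 2.18 in wildtype embryos. Their differences between homozygous and wildtype embryos had a median of -0.05, with 5 negative and 3 positive, and ran from -0.45 for Cdh5, the cadherin of endothelial cells (adjusted p = 0.0823), to 0.17 for Cldn5, a claudin of their tight junctions (adjusted p = 0.741). Their part in the Fzd4 values was not tested.

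Of the other receptors, Fzd8 averaged 7.43 ± 0.05 in homozygous, 7.27 ± 0.14 in heterozygous and 7.31 ± 0.09 in wildtype embryos (SD, n = 4, 6 and 8, as for the means that follow). Fzd1 averaged 6.15 ± 0.12 in homozygous, 6.23 ± 0.12 in heterozygous and 6.25 ± 0.15 in wildtype embryos. The coreceptor Lrp6 averaged 4.81 ± 0.29 in homozygous, 4.69 ± 0.21 in heterozygous and 4.86 ± 0.16 in wildtype embryos. None of these differences passed the test, with adjusted p values of 0.409, 0.662 and 0.893 for homozygous against wildtype embryos in limma. Fzd7, a frizzled of progenitor cells, averaged 3.90 ± 0.34 in homozygous, 3.96 ± 0.08 in heterozygous and 4.07 ± 0.16 in wildtype embryos (homozygous minus wildtype -0.17, adjusted p = 0.503).

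Among the 19 ligands the median difference between homozygous and wildtype embryos was 0.00, with 10 positive and 9 negative and a range of -0.09 to 0.17. Wnt7b, a ligand of deep-layer cortical neurons, had 4.82, 4.79, 4.73 and 4.80 in homozygous, 4.37 to 4.99 (median 4.77) in heterozygous and 4.46 to 4.96 (median 4.91) in wildtype embryos. The homozygous embryos all lay inside the wildtype range, and the difference was -0.06 (SE 0.10, adjusted p = 0.843), of a sign that depended on the scaling.

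The ligands known from the cortical hem did not pass either. Wnt3a, required for the hippocampus to form, averaged 2.33 ± 0.14 in homozygous, 2.50 ± 0.18 in heterozygous and 2.39 ± 0.16 in wildtype embryos. Wnt2b averaged 3.49 ± 0.19 in homozygous, 3.49 ± 0.23 in heterozygous and 3.55 ± 0.33 in wildtype embryos. Wnt8b averaged 4.45 ± 0.36 in homozygous, 4.32 ± 0.16 in heterozygous and 4.36 ± 0.22 in wildtype embryos. Wnt5a, which can act without beta-catenin, averaged 3.71 ± 0.22 in homozygous, 3.67 ± 0.22 in heterozygous and 3.79 ± 0.15 in wildtype embryos. Their adjusted p values for homozygous against wildtype embryos in limma ran from 0.804 for Wnt5a to 0.911 for Wnt2b. Ligands were also the class with most dim members. Of the 45 genes, 10 fell in the dimmest 1 of every 3 probe sets, and 7 of these were ligands, Wnt1 and Wnt2 among the low ones with means under 1. At such levels, below the array medians of 1.55 to 1.64, the arrays may show little of a change in transcript number. Of the ligands, 8 lie as 4 pairs of neighbours among the protein-coding genes of the RefSeq table (GRCm38.p6). For homozygous against wildtype embryos the differences were -0.04 for Wnt6 and 0.13 for Wnt10a on chromosome 1. On chromosome 11 they were -0.05 for Wnt3a and 0.10 for Wnt9a, and 0.14 for Wnt3 and 0.10 for Wnt9b. On chromosome 15 they were -0.08 for Wnt1 and 0.03 for Wnt10b, so that neighbours had the same sign in 1 of the 4 pairs and none of the 8 passed.

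The R-spondins Rspo1, Rspo2 and Rspo3 averaged 4.24 ± 0.30, 4.34 ± 0.29 and 4.13 ± 0.28 in homozygous embryos. In heterozygous embryos they averaged 4.20 ± 0.28, 4.37 ± 0.27 and 4.26 ± 0.23, and in wildtype embryos 4.07 ± 0.21, 4.31 ± 0.33 and 4.17 ± 0.25. Their spread within a genotype was wider than the differences between genotypes, of 0.17, 0.03 and -0.04 for homozygous against wildtype. Rspo4, which is dim, averaged 0.58 ± 0.19 in homozygous, 0.82 ± 0.22 in heterozygous and 0.79 ± 0.26 in wildtype embryos. Of the 9 antagonists, 7 had a positive and 2 a negative difference in that comparison, with a median of 0.06. Sfrp1, a Wnt-binding protein made by cortical progenitors, had 7.99, 7.93, 7.70 and 7.86 in homozygous, 7.63 to 7.83 (median 7.78) in heterozygous and 7.66 to 7.95 (median 7.81) in wildtype embryos. Its groups overlapped, and the difference between homozygous and wildtype embryos was 0.06 (SE 0.06, adjusted p = 0.733). Sfrp2, a relative made at the antihem, the lateral border of the cortex, averaged 5.95 ± 0.15 in homozygous, 5.93 ± 0.15 in heterozygous and 5.90 ± 0.23 in wildtype embryos. The 6 antihem markers measured had mean levels of 1.92 ± 0.03 in homozygous, 1.87 ± 0.18 in heterozygous and 1.92 ± 0.12 in wildtype embryos. Wif1, which binds Wnts outside the cell, averaged 2.50 ± 0.25 in homozygous, 2.47 ± 0.23 in heterozygous and 2.39 ± 0.18 in wildtype embryos, and its difference of 0.11 between homozygous and wildtype embryos did not pass.

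**Figure D2:**
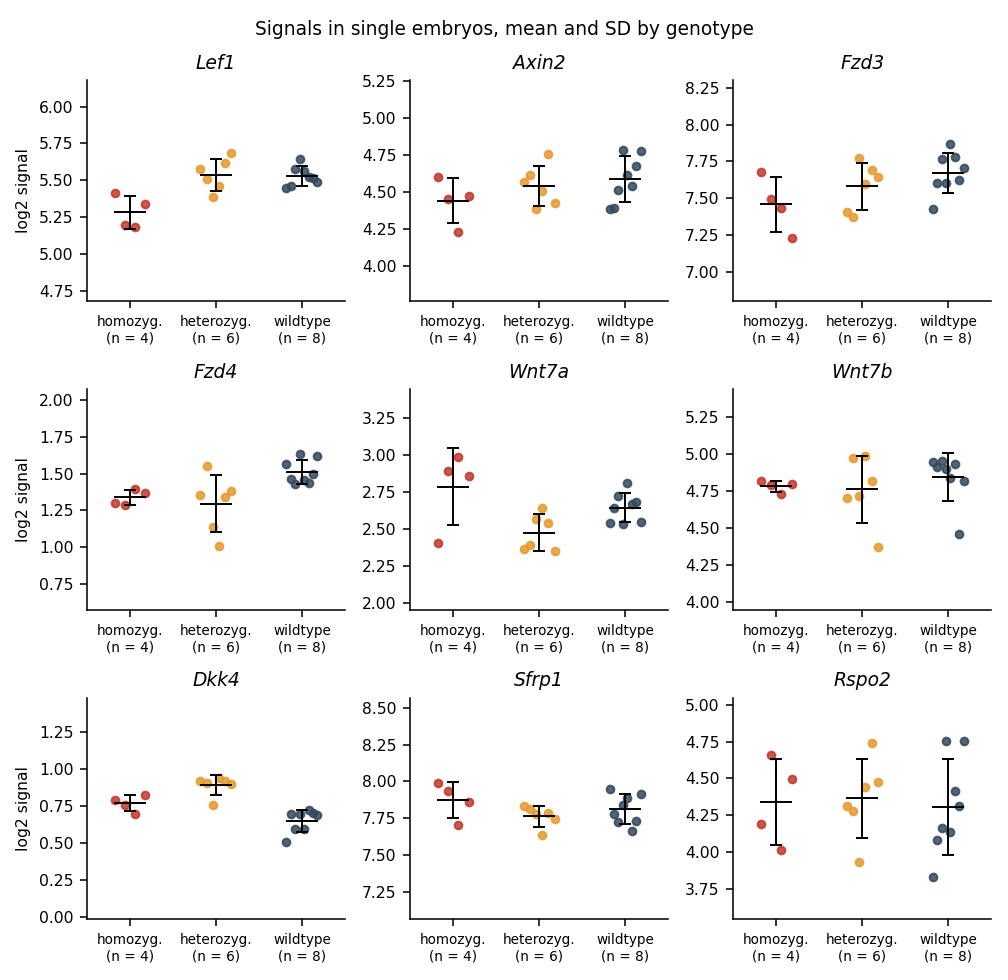
Log2 signals of 9 genes in single embryos (points) with the mean and SD (bars) for homozygous, heterozygous and wildtype embryos; every panel spans the same length of the log2 scale, so that spreads can be compared. The homozygous points of Lef1 lie at 5.18 to 5.41, below the wildtype points at 5.45 to 5.65, while the 3 groups of Rspo2 cover one another.

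In heterozygous against wildtype embryos, which share the wildtype group with the comparison above, 0 of the 45 genes passed in limma, and 0% of all probe sets did. At an unadjusted p under 0.05 there were 4 of 45 (8.89%), namely Dkk4, Fzd4, Wnt2 and Wnt7a, against 7.47% of all probe sets. The median difference was 0.01, beside -0.02 over all probe sets, and all 45 intervals lay within 0.5 of 0, as did 94.3% of all. Dkk4, an antagonist that blocks Lrp5 and Lrp6, had 0.79, 0.76, 0.70 and 0.83 in homozygous embryos, 0.76 to 0.94 (median 0.91) in heterozygous embryos and 0.51 to 0.72 (median 0.69) in wildtype embryos. Every heterozygous value was above every wildtype value, which was so for 1 of 45 genes and for 0.222% of all probe sets in either direction. The difference was 0.24 (SE 0.05, adjusted p = 0.410) for heterozygous and 0.12 (SE 0.05, adjusted p = 0.290) for homozygous against wildtype embryos. These signals stand among the dim ones. Fzd4, whose mean signal lay below the array medians, differed by -0.22 (SE 0.07, adjusted p = 0.641) between heterozygous and wildtype embryos.

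Between homozygous and heterozygous embryos 0 of 45 genes passed in limma, where 0.03% of all probe sets did (5). At an unadjusted p under 0.05 there were 8 of 45 (17.8%), against 8.53% of all probe sets. Of these, Lef1, Fzd10, Wnt1, Wnt2 and Dkk4 had negative differences, and Wnt3, Wnt7a and Fzd8 positive ones. The median difference was -0.05, beside -0.02 over all probe sets. The intervals of 43 genes (95.6%) lay within 0.5 of 0, against 89.1% of all probe sets, and Rspo4 and Wnt7a were the exceptions. In 0 of 45 genes were the homozygous and heterozygous values apart, against 1.3% of all probe sets.

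Wnt7a, a ligand of cortical progenitors, had 2.41, 2.89, 2.99 and 2.86 in homozygous embryos, 2.35 to 2.64 (median 2.47) in heterozygous embryos and 2.53 to 2.81 (median 2.66) in wildtype embryos. Homozygous replicate 1 lay with the heterozygous embryos and the other homozygous embryos above them all. The difference between homozygous and heterozygous embryos was 0.31 (SE 0.10, 95% interval 0.11 to 0.51, adjusted p = 0.374). Without homozygous replicate 1 it was 0.44 with an adjusted p of 0.0310. Lef1 differed by -0.26 (SE 0.07, adjusted p = 0.239) in the same comparison.

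Wnt2, a ligand better known from lung and heart, had 0.55, 0.38, 0.54 and 0.67 in homozygous embryos, 0.60 to 0.82 (median 0.70) in heterozygous embryos and 0.41 to 0.72 (median 0.58) in wildtype embryos. The 3 groups overlapped and all values were dim. The difference was -0.18 (SE 0.07, adjusted p = 0.485) between homozygous and heterozygous and 0.13 (SE 0.06, adjusted p = 0.658) between heterozygous and wildtype embryos.

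The rest of the pathway was read from 4 lists of genes. Over all probe sets 0.564% passed in homozygous against wildtype embryos, and 15.3% had an unadjusted p under 0.05 in limma. In homozygous against wildtype embryos 0 of 19 genes of Wnt secretion and other coreceptors passed, with 2 at an unadjusted p under 0.05 in limma and a median of -0.06. These were Lrp4 (0.21, adjusted p = 0.284), a relative of Lrp5 and Lrp6, and Tmem88 (-0.34, adjusted p = 0.305), which binds dishevelled. Of 26 intracellular genes 0 passed, with 6 at an unadjusted p under 0.05 and a median of -0.09. Dvl3, a dishevelled protein that passes the signal on from the frizzleds, averaged 6.07 ± 0.34 in homozygous and 6.45 ± 0.10 in wildtype embryos (difference -0.38, SE 0.10, adjusted p = 0.0860). Gsk3b, the kinase that marks beta-catenin for destruction, averaged 7.88 ± 0.07 in homozygous and 8.06 ± 0.09 in wildtype embryos (difference -0.18, SE 0.06, adjusted p = 0.115).

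Of 14 canonical target genes 0 passed, with a median of -0.07. In limma 1 had an unadjusted p under 0.05, beside 15.3% of all probe sets. Myc, a growth-promoting transcription factor, averaged 3.67 ± 0.40 in homozygous and 4.25 ± 0.19 in wildtype embryos (difference -0.57, SE 0.16, adjusted p = 0.1004), and Dact1, which binds dishevelled, differed by -0.33 (adjusted p = 0.366). Of 14 genes of planar cell polarity and noncanonical signalling 4 had an unadjusted p under 0.05 in limma, and the median was -0.09. Of these 14 genes 1 fell and 0 rose, beside 0.504% of all probe sets called lower. That gene was Celsr3, a large cadherin that works with Fzd3 in the growth of axon tracts. It averaged 4.72 ± 0.23 in homozygous and 5.35 ± 0.17 in wildtype embryos, a difference of -0.62 (SE 0.12, adjusted p = 0.0171). Mapk8, a kinase of the noncanonical branch, differed by -0.25 (adjusted p = 0.125). Celsr3 is known from postmitotic neurons, and the cortical neuron markers had a median difference of -0.32 in the same comparison. Their part in the Celsr3 value was not tested. In both comparisons with heterozygous embryos 0 genes passed in each of the 4 lists. For heterozygous against wildtype, 0 to 1 gene a list had an unadjusted p under 0.05 in limma, beside 7.47% of all probe sets. For homozygous against heterozygous embryos 1 to 3 did, beside 8.53% of all probe sets.

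Embryos of 1 genotype also differed among themselves. Rspo2 varied with the level of markers of cortical hem and choroid plexus, the tissue that makes cerebrospinal fluid. The mean level of 10 such markers, called the hem level below, ran from 2.28 to 3.58 over the 18 embryos. It averaged 2.98 ± 0.31 in homozygous, 2.96 ± 0.43 in heterozygous and 2.99 ± 0.48 in wildtype embryos. The markers that vary most weigh most in it, with wildtype SDs from 0.12 for Gdf7 to 1.62 for the choroid plexus gene Ttr. Rspo2 had 4.19, 4.66, 4.01 and 4.50 in homozygous embryos, 3.94 to 4.74 (median 4.38) in heterozygous embryos and 3.83 to 4.76 (median 4.24) in wildtype embryos. The groups covered one another, and the 2 wildtype embryos with the highest hem levels, 3.58 and 3.41, both had the highest wildtype Rspo2 value of 4.76.

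Over the 18 embryos Rspo2 correlated with the hem level with Pearson's r = 0.73 (permutation p = 0.00087, 0.0391 after Benjamini-Hochberg adjustment over the 45 correlations computed) and Spearman's rho = 0.78 (permutation p = 0.0003, adjusted 0.0135). Within wildtype embryos r was 0.70 (n = 8, exact permutation p = 0.0565), and within heterozygous embryos 0.81 (n = 6, exact permutation p = 0.0417). Without the 2 embryos farthest from the median hem level r was 0.69 (adjusted p = 0.139), and on deviations from the genotype means it was 0.73 (adjusted p = 0.0760). Leaving out 1 embryo at a time gave r of 0.68 to 0.80, and the adjusted p went above 0.05 in 11 of 18 such repeats. Wnt2b had r = 0.50 (adjusted p = 0.538), Wif1 0.50 (0.538), Wnt8b 0.45 (0.557) and Wnt3a 0.45 (0.557), none of which passed. The points share the arrays and so any array-wide shift, and after a further quantile normalization r for Rspo2 was 0.75. With Ttr left out of the markers r for Rspo2 was 0.78 (adjusted permutation p = 0.0103).

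**Figure D3:**
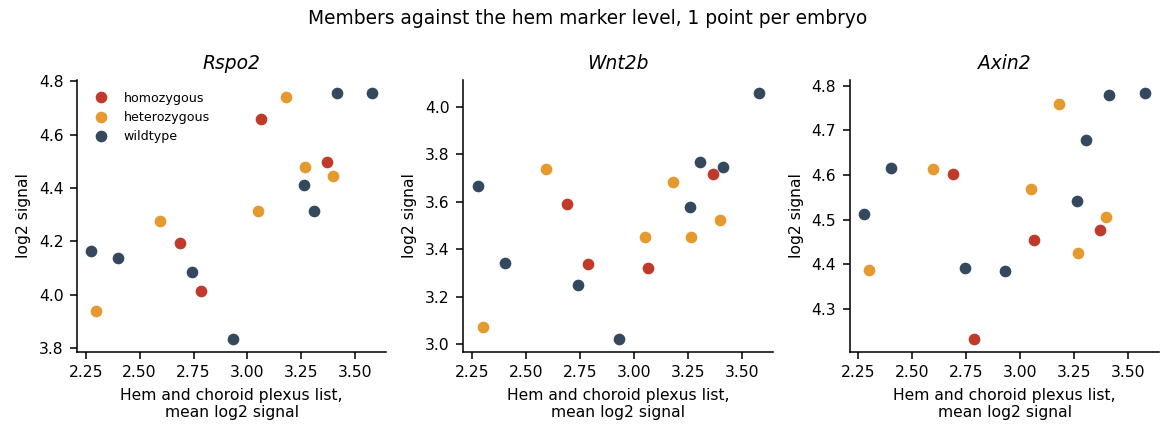
Log2 signals of Rspo2, Wnt2b and Axin2 against the mean log2 signal of the hem and choroid plexus markers, 1 point per embryo, coloured by genotype. Rspo2 is higher in embryos with a higher level of these markers (r = 0.73), with the 3 genotypes intermingled.

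Each gene was also correlated with every other over the embryos. Of 990 pairs, 0 passed by Pearson's r after adjustment over the pairs, and 2 passed by Spearman's rho. Axin2 and Wnt2b had r = 0.75 (adjusted permutation p = 0.0957) and rho = 0.80 (adjusted 0.0396). Sfrp5 and Lrp6 had r = -0.72 (adjusted 0.123) and rho = -0.87 (adjusted 0.0396), the antagonist being dim on these arrays. On deviations from the genotype means 1 pair passed, Axin2 with the R-spondin Rspo1, at r = 0.91 (adjusted 0.00990). Its unadjusted p was the smallest that 100000 permutations can give. Over all 18 embryos that pair had r = 0.71 and rho = 0.70 (adjusted 0.123 and 0.149).

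Several of the pairs with high r joined R-spondins to one another or to Axin2, Wnt2b or Wnt8b. Rspo3 and Rspo2 had r = 0.77 (adjusted 0.0891), Rspo3 and Axin2 0.72, Rspo2 and Wnt8b 0.71, Rspo2 and Wnt2b 0.70, and Rspo3 and Rspo1 0.70. Fzd7 and Lrp5, a frizzled and a coreceptor, had 0.77 (adjusted 0.0891), and 0.59 without the 2 embryos farthest from the median of Fzd7. Without 2 embryos chosen in the same way, r was 0.67 for Rspo3 and Rspo2 and 0.73 for Axin2 and Wnt2b. Lef1 had a negative r with Wnt7a, of -0.65 (adjusted 0.167), and of -0.34 without 2 embryos chosen as above. On deviations from the genotype means r for this pair was -0.52 (adjusted permutation p = 0.399), and after quantile normalization -0.47. In each coefficient both genes were read from the same arrays.

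**Figure D4:**
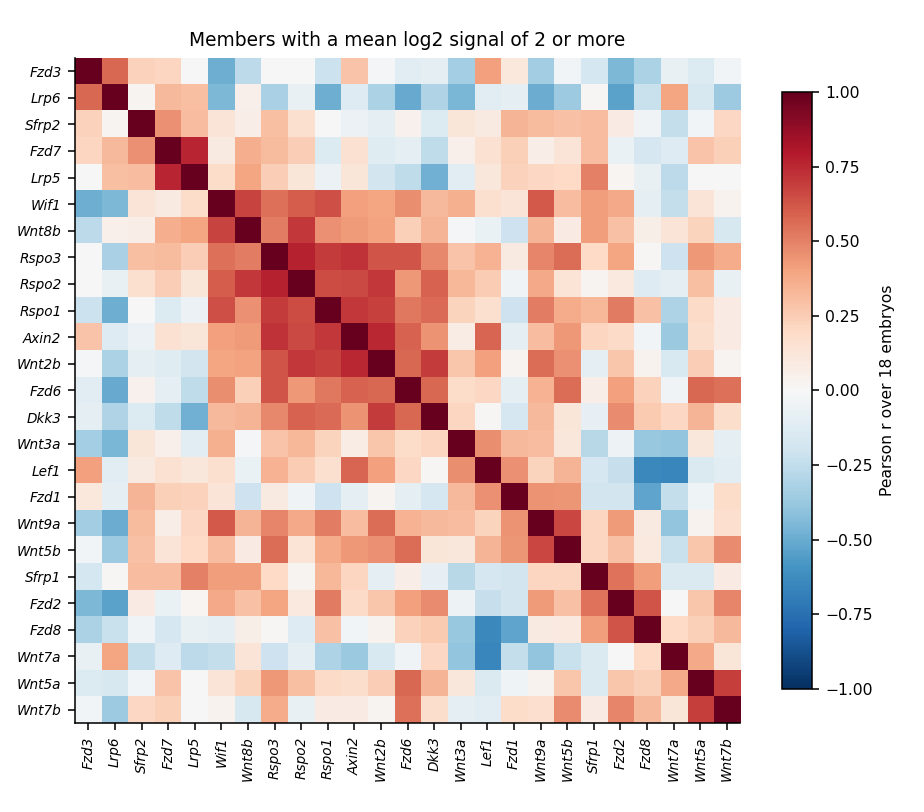
Pearson's r over the 18 embryos between each 2 of the 25 genes with a mean log2 signal of 2 or more, ordered by clustering so that like genes stand together; red is positive and blue negative. A red block near the centre holds Rspo1, Rspo2, Rspo3, Axin2 and Wnt2b, and Fzd7 with Lrp5 forms a separate red pair.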

How the data were processed

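Total RNA of 18 embryos, reduced in ribosomal RNA per the labels' protocols, was hybridized to 1 Affymetrix whole-transcript array each. The deposited log2 values were made by the authors with RMA in Affymetrix Expression Console 1.1, per the submitters' processing notes; no genome build is named. Of 23238 probe sets, the 16661 with identifiers of 6700000 or above, the range of the platform's gene table, were tested (14939 with 1 symbol, 989 with several, 733 with none), and the highest-mean probe set stood for each gene. Genotype means were estimated from the 18 arrays together in limma 3.58.1 (R 4.3.3; lmFit, eBayes, two-sided tests), adjusted by Benjamini-Hochberg over the 16661, threshold 0.05. Correlations had 100000 permutations, or exact ones within a genotype. The fit was tested on simulated data.

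The genes and lists were chosen with earlier results of these data known. Values per embryo are given for Insm1, the 3 genes per comparison with the smallest p, the highest-mean gene of each role, and genes that pass, hem correlation included. Axin2, and the values of Fzd4 in homozygous embryos, were added after values were seen. In each pathway list, those that pass and the 2 with the smallest p are named. Whether embryos of a genotype were littermates is not stated, so the p-values reflect only the spread among the embryos sampled. Same-numbered embryos of different genotypes had correlations of -0.21 to 0.22 over 14 pairs, 5 of them above 0.1. The numbers were not used to pair embryos, though such correlations cannot show whether same-numbered embryos shared a litter. The number of arrays, with 4 homozygous embryos, limits the precision.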

Additional observations from a re-analysis of the deposited data

Results flagged for a closer look

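In 141 groups of values (45 genes and Insm1 in 3 genotypes, with the marker level), 8 held 1 embryo far from the others of its genotype by Dixon's criterion. Chance flags about 1 in 20 groups, or 7.05 here. In homozygous embryos Frzb was at 1.65 in replicate 1, against 2.01 for the nearest. In heterozygous embryos Dkk4 was at 0.756 in replicate 3 (nearest 0.903), Wnt11 at 1.53 in replicate 5 (nearest 1.84) and Insm1 at 4.02 in replicate 6 (nearest 4.76), the embryo with the highest hypoxia level. In wildtype embryos Wnt10b was at 1.45 in replicate 1 (nearest 1.06), Fzd6 at 3.36 in replicate 4 (nearest 2.99), Sfrp2 at 5.37 in replicate 7 (nearest 5.82) and Wnt7b at 4.46 in replicate 7 (nearest 4.82).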

How the results depend on the processing

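The count of 0 Wnt genes passed in the 3 comparisons held under a trended robust prior, quantile normalization, median centring, array weights, the whole table, fits of the compared groups, removal of dim probe sets or of 2 arrays, and each covariate. It became 1 (Lef1) at a threshold of 0.10 for homozygous against wildtype embryos. Leaving out 1 embryo gave 0 to 1 there (1 without homozygous replicate 1 or heterozygous replicate 6) and 0 to 1 for homozygous against heterozygous embryos (Wnt7a, without homozygous replicate 1). With a replicate block the counts were 0 in all 3 comparisons, and whether the numbers pair embryos is not known. The count of genes passing with the hem level was 1, and 0 on genotype deviations or without the 2 farthest embryos; leaving out 1 embryo gave 0 to 1. The 0 passing pairs became 1 on genotype deviations; these pair settings and the leave-outs for the hem level were chosen after seeing the data. The cause was not tested.

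Differences near 0 changed sign. For Wnt7b (-0.06) homozygous minus wildtype was 0.017 with quantile normalization, 0.0024 with median centring, 0.052 with the 75th percentile and 0.0031 with the hypoxia list as covariate. For Rspo2 (0.03) it was -0.0027 with the 75th percentile, -0.049 with the hypoxia list, -0.038 with Eif2s3y, and -0.073 without the 2 arrays farthest on the first component; leaving out 1 embryo gave -0.07 to 0.14.

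The 94 probe sets called over the whole table for homozygous against wildtype embryos (10 higher, 84 lower) became 158 with quantile normalization (84 higher, 74 lower), 142 with median centring (75 and 67), 173 with the 75th percentile (99 and 74), 361 with the replicate block, 146 without the dimmest and 383 at 0.10. Leaving out 1 embryo gave 36 (homozygous replicate 2) to 394 (homozygous replicate 1). The 5 called for homozygous against heterozygous embryos became 21 with quantile normalization, 13 with median centring, 26 with the 75th percentile, 9 at 0.10, 1 with the replicate block and 2 in a fit of the compared groups. Signals under the array medians limit what the dim genes can show.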
